A study of Mus musculus with 28 samples.

Results

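Linker histones are the H1 proteins that bind the nucleosome where DNA enters and leaves it. The family was taken here as 6 genes, H1f0, H1f1, H1f2, H1f3, H1f4 and H1f10, each followed through its brightest probe set, the one with the highest mean over the 28 arrays. The array annotation used here assigned a probe set to 3 of the 6, which were H1f2, H1f4 and H1f10, out of 18193 genes that had a probe set of their own. H1f0, H1f1 and H1f3 were not analysed here. A gene was tested if it lay over a detection level of 4.27 log2 units in at least 2 arrays, and H1f2 and H1f4 were among the 9870 genes that did. The probe sets were selected on this mean level, which is given as a description with no test. The family was proposed after the large rise of H1f2 in these data was known, so its p-values are no independent evidence of that rise.

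The arrays held RNA of mouse splenic T cells that had been isolated by negative selection and activated for 2 days with antibodies against CD3 and CD28. The drugs were then present for 1 day. CD4 and CD8 cells were each treated with romidepsin at 2, 10 or 30 nM or with vorinostat at 0.5, 2 or 10 µM, and the stimulated control of each cell type received no drug that the labels name. The labels state no vehicle, mouse strain or age. Each of the 14 groups had 2 arrays (n = 2 throughout), which limits the precision of every value below. The labels do not say whether replicates came from separate mice, but sex-linked genes given below differed between replicate 1 and replicate 2. Romidepsin is a cyclic peptide inhibitor of class I histone deacetylases and vorinostat is a hydroxamic acid inhibitor of several classes, and both raise histone acetylation.

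As background, H1 proteins compact the nucleosome chain, and most cells carry several variants at once. H1f1 to H1f5 sit in the large histone gene cluster and are replication-dependent, that is, they are transcribed mainly in S phase, and their mRNA usually ends in a stem-loop with no poly(A) tail. H1f0 and H1f10 lie outside that cluster, and H1f0 is known to accumulate in cells that stop dividing and in cells given deacetylase inhibitors. H1f2, also called H1c or H1.2, is made in most somatic cells, can give polyadenylated transcripts as well, and has been linked to apoptosis, as its human protein leaves the nucleus after DNA breaks. Message amplification kits of the kind used to label this RNA usually prime from poly(A) tails, and how far that set the H1 signal was not tested.

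The promoters of the 3 measured genes are shown because H1f2 and H1f4 share motifs of replication-dependent H1 promoters, and of the 2 only H1f2 passed any test below. H1f10 is the member from outside the histone cluster. Each line gives the 250 bases before the annotated gene start, on the strand of the gene, from RefSeq (GRCm38.p6). Capitals mark the H1-specific AC box (AAACACA), the CCAAT box (CCAAT) and the TATA box (TATAAA), searched on both strands.
H1f2: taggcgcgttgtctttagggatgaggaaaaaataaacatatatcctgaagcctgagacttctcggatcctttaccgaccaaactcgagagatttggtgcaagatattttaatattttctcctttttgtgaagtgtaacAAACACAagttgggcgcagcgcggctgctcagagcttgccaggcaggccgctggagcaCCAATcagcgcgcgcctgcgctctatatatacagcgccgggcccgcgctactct
H1f4: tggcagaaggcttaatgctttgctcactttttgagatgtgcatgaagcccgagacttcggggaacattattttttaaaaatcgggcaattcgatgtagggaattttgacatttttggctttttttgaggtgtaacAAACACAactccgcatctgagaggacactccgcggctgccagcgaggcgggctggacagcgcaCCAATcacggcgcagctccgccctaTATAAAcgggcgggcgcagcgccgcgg
H1f10: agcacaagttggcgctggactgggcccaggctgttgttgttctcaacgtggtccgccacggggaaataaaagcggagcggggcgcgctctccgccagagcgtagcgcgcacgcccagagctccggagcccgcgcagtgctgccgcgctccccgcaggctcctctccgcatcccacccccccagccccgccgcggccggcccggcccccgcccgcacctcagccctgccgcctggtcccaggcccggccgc
The H1f2 window lies at chr13:23738557-23738806 on the plus strand, the H1f4 window at chr13:23622559-23622808 on the minus strand and the H1f10 window at chr6:87981483-87981732 on the minus strand. The AC box began 112 bases before the start of H1f2 and 115 bases before that of H1f4, and the CCAAT box 54 and 52 bases before them. H1f4 also held TATAAA 27 bases before its start, a run of letters that the H1f2 window did not hold. Only that exact run was searched for, so the letters tatatata near the end of the H1f2 window are not marked. None of the 3 motifs was found in the H1f10 window. No motif overlapped another. Of 32851 promoter windows of the same length in the table, 6.25% held the AC box, 33.8% the CCAAT box, 12.4% the TATA box and 0.39% all 3. These matches describe the letters only.

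The arrays of replicate 1 and replicate 2 differed throughout. Replicate 1 arrays carried the Y-linked Eif2s3y at 11.36 to 12.02 log2 units with Xist at 2.27, whereas replicate 2 arrays carried Xist at 11.69 to 12.72 with Eif2s3y at 2.25. The 2 replicates of a group therefore came from mice of different sex. The lowest value was 2.2684 in replicate 1 arrays and 2.2545 in replicate 2 arrays, and whether the 2 sets were normalized separately is not stated. Sex cannot be told apart from other differences between the sets. For short they are called batches 1 and 2 below, though the labels name no batch. The main changes are also given within them, and the fit with the batch as a block is quoted where it alters a call. Cd8a was at least 9.34 in CD8 arrays and at most 6.07 in CD4 arrays, and over the detection level in 12 of the 14 CD4 arrays. Cd8b1 was 9.93 to 12.60 in CD8 arrays and 5.32 to 8.28 in CD4 arrays, over that level in all 14 CD4 arrays. Cd4 was under the detection level in 3 CD4 arrays, both with romidepsin at 30 nM and batch 1 with vorinostat at 10 µM. Without these 3 arrays no array was left for 30 nM romidepsin in CD4 cells, and H1f2 at 10 µM vorinostat, described below, still passed with a rise of 4.40 (limma adjusted p = 0.00832), whereas at 10 nM romidepsin in CD8 cells it did not (adjusted p = 0.0615). The beta-actin 3' minus 5' difference, which grows as RNA degrades, was 1.33 to 1.62 in batch 1 and 0.85 to 1.09 in batch 2 of the CD4 groups in which H1f2 is called below, against 0.94 and 0.78 in their control. The called CD8 groups had 1.01 to 1.43 and 0.85 to 1.16, against 0.86 and 0.79. With this difference as a covariate beside the block, the 6 changes of H1f2 called below were 3.47 to 5.81 and all passed. Summed linear values of cell type markers are given for the same groups. The 5 T cell markers summed to 1060 to 1850 in batch 1 and 2180 to 4120 in batch 2 of the CD4 groups, against 3970 and 6260 in their control, and to 3170 to 9190 and 7410 to 15600 in the CD8 groups, against 11300 and 18200. The 4 measured of 5 B cell markers summed to 32.5 to 40 and 76 to 160 in the CD4 groups, against 126 and 1250, and to 38.3 to 51.6 and 89.2 to 256 in the CD8 groups, against 124 and 536. Both sums were lower in every one of these groups than in the control of the same batch. Of 5 macrophage markers, Csf1r, Lyz2, Adgre1 and Cd14 lay under the detection level in all arrays, and the sum was carried by Cd68. It was 101 to 131 in batch 1 and 88.1 to 134 in batch 2 of the CD4 groups, against 81.7 and 133, and 150 to 194 and 91.7 to 157 in the CD8 groups, against 65.7 and 118, so it was higher throughout batch 1. Of the 3 measured of 5 NK cell markers, Ncr1 and Klre1 lay under the detection level in all arrays. The sum was carried by Eomes, so it does not by itself show NK cells. It was 56 to 66.1 and 62.3 to 90 in the CD4 groups, against 38.8 and 61.4. In the CD8 groups it was 252 to 884 and 692 to 3250, against 1100 and 2930. The part of any of these cell types in the H1f2 result was not tested, and fewer cells of a type cannot be told apart from less RNA per cell.

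H1f2 (chr13:23738807-23739531, GRCm38.p6) was high after either drug and in both cell types. In CD4 cells its level was 7.18 and 5.35 log2 units in batches 1 and 2 of the control. It was 9.26 and 7.35 with romidepsin at 2 nM, 12.57 and 10.57 at 10 nM and 11.86 and 11.22 at 30 nM. Vorinostat gave 7.78 and 6.55 at 0.5 µM, 9.22 and 7.88 at 2 µM and 10.90 and 10.67 at 10 µM. The control arrays were the lowest of their batch, and the arrays of every drug group except vorinostat at 0.5 µM lay wholly above both control arrays.

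The change was an order of magnitude or more at the higher doses in CD4 cells. Romidepsin at 10 nM raised H1f2 39.6-fold, a log2 difference of 5.31 ± 0.71 (standard error; limma adjusted p = 0.000199), where 6.32% of all tested genes were called higher. At 30 nM the rise was 5.28 ± 0.71 (adjusted p = 7.75e-05), beside 13.3% of genes called higher. Vorinostat at 10 µM raised it by 4.52 ± 0.71 (adjusted p = 0.000354), beside 10.9% of genes. By size of rise H1f2 ranked 4, 8 and 14 among the 9870 genes in these 3 comparisons. With 1 array left out the difference was 4.31 to 6.30 for 10 nM romidepsin and 4.37 to 6.19 for 30 nM. For 10 µM vorinostat it was 3.61 to 5.43. Leaving out 1 array unbalances the batches, so these ranges include the gap between batches and do not measure the precision of the drug effect. Without the block the intervals were 3.8 to 6.81, 3.77 to 6.78 and 3.01 to 6.03 in the same order. With the block they were 4.58 to 6.03, 4.55 to 6 and 3.79 to 5.24. Batches 1 and 2 gave rises of 5.39 and 5.22 for 10 nM romidepsin, 4.68 and 5.87 for 30 nM, and 3.73 and 5.31 for 10 µM vorinostat.

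The lower doses gave smaller differences in CD4 cells that did not pass without the block. Romidepsin at 2 nM gave 2.04 ± 0.71 (adjusted p = 1), with 2.08 and 2.00 in the batches, and vorinostat at 2 µM gave 2.29 ± 0.71 (adjusted p = 0.166), with 2.04 and 2.53. With the batch as a block both passed, with adjusted p = 0.0134 and 0.000426, beside 0.821% and 12.4% of genes called higher in that fit. Without the block 0.0304% of genes were called higher at 2 nM romidepsin, where H1f2 ranked 6 by size of rise, and 1.08% at 2 µM vorinostat. With vorinostat H1f2 ranked 29 at 2 µM and 75 at 0.5 µM. Vorinostat at 0.5 µM gave 0.90, with a 95% interval of -0.61 to 2.40, and did not pass with the block either (adjusted p = 0.35), beside 0.0101% of genes called higher without the block and 0.193% with it.

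**Figure D1:**
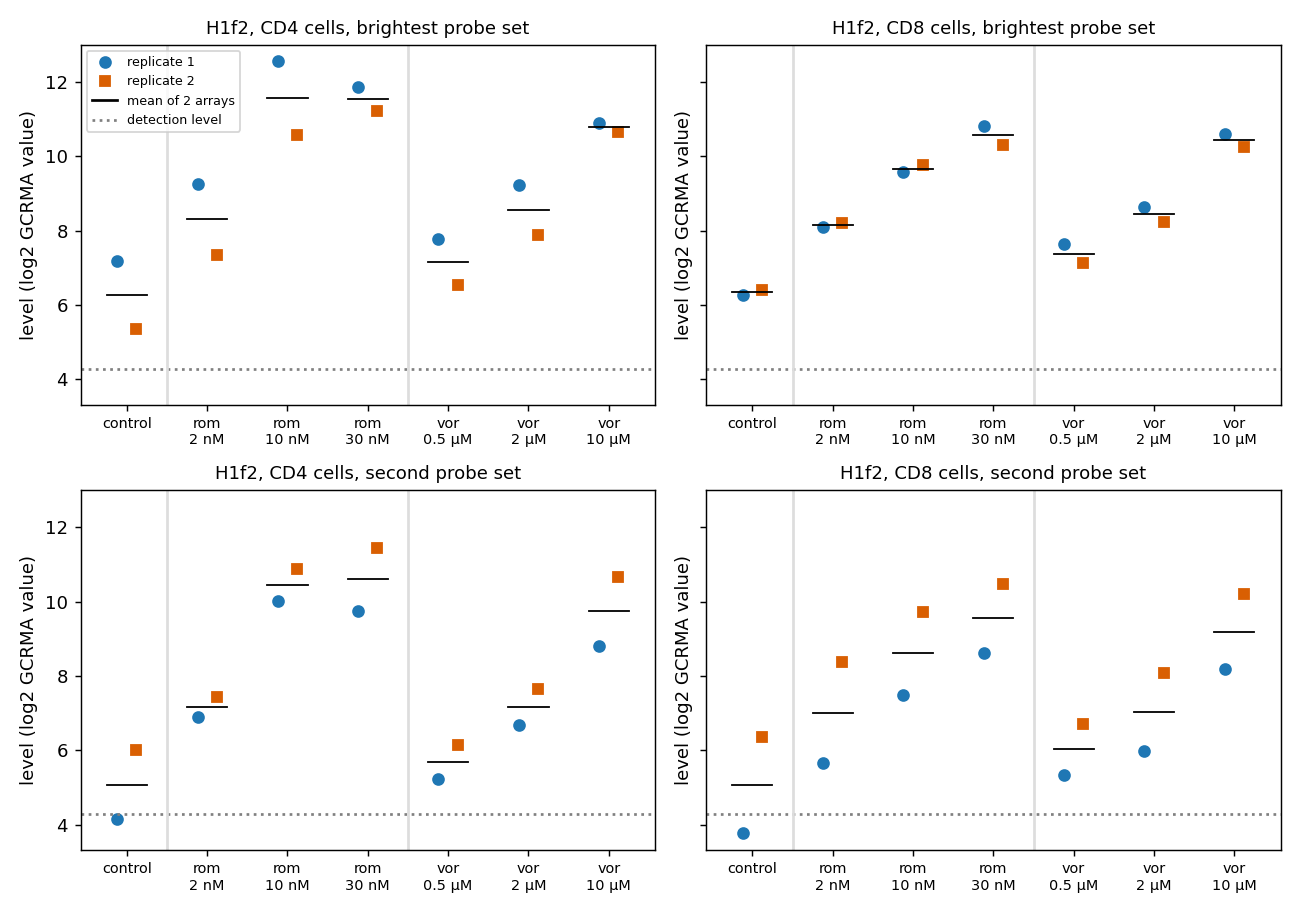
Level of H1f2 (log2 GCRMA value) on each of the 28 arrays, in CD4 cells (left) and CD8 cells (right), for the brightest probe set (top) and the second probe set (bottom). Circles are replicate 1, squares replicate 2, bars the mean of 2 arrays and the dotted line the detection level of 4.27. In all 4 panels the control mean is the lowest, and means of groups at 10 nM, 30 nM and 10 µM are the 3 highest.

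In CD8 cells H1f2 also rose. Its level was 6.28 and 6.41 in batches 1 and 2 of the control. With romidepsin it was 8.10 and 8.22 at 2 nM, 9.57 and 9.77 at 10 nM and 10.83 and 10.31 at 30 nM. Vorinostat gave 7.63 and 7.12 at 0.5 µM, 8.64 and 8.24 at 2 µM and 10.61 and 10.26 at 10 µM. No drug group overlapped the control.

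Romidepsin at 10 nM raised H1f2 in CD8 cells 10.0-fold, by 3.33 ± 0.71 (adjusted p = 0.0311), where 1.11% of genes were called higher. At 30 nM the rise was 4.23 ± 0.71 (adjusted p = 0.00106; 7.89% of genes), and with vorinostat at 10 µM it was 4.09 ± 0.71 (adjusted p = 0.000742; 12.1% of genes). The batches gave 3.29 and 3.36, then 4.55 and 3.90, and then 4.33 and 3.85. By size of rise H1f2 ranked 11, 26 and 41 in the same order. The call at 10 nM was lost when any of its 4 arrays was left out (3.22 to 3.43, adjusted p at most 0.245), and with the block it had adjusted p = 2.09e-05.

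At the lowest dose of romidepsin in CD8 cells H1f2 had the largest rise in mean level of all 9870 genes. The value was 1.82 ± 0.71, with 1.82 and 1.81 in the batches, but it did not pass without the block (adjusted p = 1) or with it (adjusted p = 0.276). Neither fit called any gene at that dose, so 0% of genes passed. Vorinostat at 2 µM gave 2.10 ± 0.71 (adjusted p = 0.147), and with the block it passed (adjusted p = 0.000392; 16.4% of genes higher, against 2.55% without the block). Vorinostat at 0.5 µM gave 1.03, with an interval of -0.48 to 2.53, and did not pass in either fit (0% and 0.699% of genes called higher). By size of rise H1f2 ranked 110 at 2 µM and 104 at 0.5 µM vorinostat.

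Over the 12 drug comparisons H1f2 was called higher in 6 without the block and in 9 with it, and never lower. At the 3 CD4 doses called in both fits, 26.2% (romidepsin 10 nM), 35.3% (30 nM) and 31.9% (vorinostat 10 µM) of all genes were called higher with the block, and in CD8 cells 9.06%, 27.8% and 31.6%. The level of H1f2 was higher in both batches in all 12. Its arrays did not overlap those of the control in 11 of the 12. For all genes that share was 13.3%, 38.5% and 49.9% from low to high romidepsin in CD4 cells and 12.1%, 28% and 48.8% for vorinostat. In CD8 cells it was 7.74%, 24.8% and 40.9% for romidepsin and 15.6%, 32.9% and 50.6% for vorinostat, so at the top doses arrays that do not overlap are common. Each cell type's 6 comparisons share 1 control group, so these counts are not independent.

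A second probe set of H1f2 was also higher with the drugs. Its batch 1 control lay under the detection level in both cell types, so changes against it depend on a value not above background. In CD4 cells its level was 10.02 and 10.87 at 10 nM romidepsin and 8.82 and 10.67 at 10 µM vorinostat, against 4.14 and 6.01 in the control. In CD8 cells it was 7.50 and 9.72 at 10 nM romidepsin and 8.18 and 10.21 at 10 µM vorinostat, against 3.76 and 6.35 in the control. Both drug arrays were above both control arrays in each of these cases. At lower doses some groups overlapped the control. These were vorinostat at 0.5 µM in both cell types, and romidepsin at 2 nM and vorinostat at 2 µM in CD8 cells. The difference was 5.37 ± 1.20 with romidepsin at 10 nM in CD4 cells (adjusted p = 0.00942), and 3.55 ± 1.20 in CD8 cells (adjusted p = 0.312). This probe set was called in 5 of the 12 comparisons, that is, in those called for the brightest probe set except that last one. The shares of genes called higher in this fit were 1.1% there and 12% with vorinostat at 10 µM in CD8 cells, and as given above for the other comparisons. It was read on the same arrays and is no independent sample. The third probe set stayed between 2.25 and 2.27 in all 28 arrays, under the detection level.

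**Figure D2:**
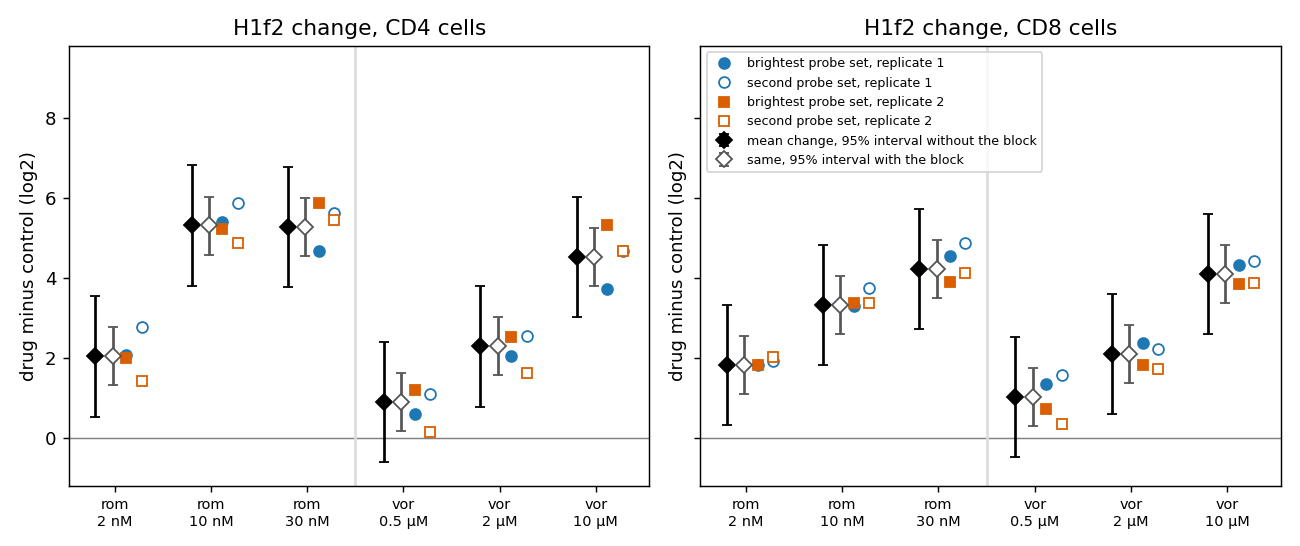
Change of H1f2 (log2, drug minus control of the same cell type) by drug and dose in CD4 cells (left) and CD8 cells (right). Diamonds are the mean change of the brightest probe set with its 95% interval, filled without and open with the batch as a block, and circles and squares are replicate 1 and replicate 2 for the brightest (filled) and second (open) probe set. All points lie above 0, and the mean change with romidepsin in CD8 cells is 3.33 at 10 nM and 4.23 at 30 nM, against 5.31 and 5.28 in CD4 cells.

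The dose steps show where H1f2 climbed. In CD4 cells the step to 10 nM romidepsin, with 2 nM as the lower dose, was 3.27 ± 0.71 (adjusted p = 0.0166; 3.26% of genes called higher). It was the single step of 8 that passed without the block. The batches gave 3.31 and 3.22, and it passed with the block too (adjusted p = 2.12e-05). Without the block it was lost when batch 1 of 10 nM (2.27) or batch 2 of 2 nM (2.31) was left out, which unbalances the batches. It was also lost with the second probe set (3.28, adjusted p = 0.164) and with CD4 cells fitted alone (3.27, adjusted p = 0.13). The next step, to 30 nM, was -0.03 with an interval of -1.54 to 1.48, and its batches went opposite ways (-0.71 and 0.65). In CD8 cells the same 2 steps were 1.51 (adjusted p = 1) and 0.90 (adjusted p = 0.988), beside 0.213% and 0.466% of genes called higher, and the CD4 step to 30 nM had 0.111%.

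With vorinostat the step to 10 µM, with 2 µM as the lower dose, was 2.23 ± 0.71 in CD4 cells (adjusted p = 0.0819) and 2.00 ± 0.71 in CD8 cells (adjusted p = 0.134), beside 3.66% and 3.07% of genes called higher. The step to 2 µM, with 0.5 µM as the lower dose, was 1.39 in CD4 cells and 1.07 in CD8 cells (adjusted p = 1 for both), beside 0% and 0.162%. With the block 5 of the 8 steps passed, namely romidepsin to 10 nM and vorinostat to 10 µM in both cell types (adjusted p from 2.12e-05 to 0.0211) and vorinostat to 2 µM in CD4 cells (adjusted p = 0.0319). The share of genes called higher in that fit was 22.2% and 3.31% for romidepsin to 10 nM in CD4 and CD8 cells, 25.9% and 22.7% for vorinostat to 10 µM, and 2.83% for the CD4 step to 2 µM. For the 3 steps that did not pass it was 6.43% and 12.8% for romidepsin to 30 nM in CD4 and CD8 cells and 7.4% for vorinostat to 2 µM in CD8 cells.

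In the order of mean levels the arrays of some neighbouring groups overlapped. In CD4 cells romidepsin at 10 nM (11.57 ± 1.41, SD) and 30 nM (11.54 ± 0.45) overlapped, followed by vorinostat at 10 µM (10.78 ± 0.17). Vorinostat at 2 µM (8.55 ± 0.94), romidepsin at 2 nM (8.30 ± 1.35), vorinostat at 0.5 µM (7.16 ± 0.87) and the control (6.27 ± 1.29) each overlapped the next. Within batches romidepsin at 2 nM was above vorinostat at 0.5 µM, and that above the control, in both, whereas vorinostat at 2 µM was above romidepsin at 2 nM in 1 of 2. In CD8 cells romidepsin at 30 nM (10.57 ± 0.37) overlapped vorinostat at 10 µM (10.44 ± 0.25) but was above it in both batches. Below them came romidepsin at 10 nM (9.67 ± 0.14), vorinostat at 2 µM (8.44 ± 0.28), romidepsin at 2 nM (8.16 ± 0.09), vorinostat at 0.5 µM (7.37 ± 0.36) and the control (6.34 ± 0.09), with no overlap between neighbours.

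The drugs were set against each other at their middle and top doses, which are not matched in potency. Vorinostat at 2 µM minus romidepsin at 10 nM was -3.02 ± 0.71 in CD4 cells (adjusted p = 0.0902; 0.344% of genes called in either direction). With the block it passed (adjusted p = 0.000335), where 15.4% of genes were called. The same difference in CD8 cells was -1.23 (interval -2.74 to 0.28). At the top doses, vorinostat at 10 µM minus romidepsin at 30 nM was -0.76 (-2.26 to 0.75) in CD4 cells and -0.13 (-1.64 to 1.37) in CD8 cells. In these 3 comparisons 0.0304% of genes at most were called without the block, and 0.405%, 0.0507% and 8.28% with it. Without the block limma called H1f2 in none of these 4 comparisons, with 1 at an unadjusted p under 0.05, and with the block in 1.

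The cell types were compared through the difference of their responses. At 10 nM romidepsin the response of CD8 cells minus that of CD4 cells was -1.98 ± 1.00 (adjusted p = 0.996), -2.10 and -1.86 in the batches. It passed with the block (adjusted p = 0.0241), where 8.4% of genes were called, and the second probe set gave -1.82 ± 1.70 (adjusted p = 1). At 30 nM the difference was -1.05 (interval -3.18 to 1.08), with -0.13 and -1.97 in the batches. The other 4 doses gave -0.43 to 0.13, with interval bounds from -2.56 to 2.26, which do not show equal responses. With vorinostat the batches went opposite ways at every dose. They gave 0.74 and -0.48 at 0.5 µM, 0.32 and -0.70 at 2 µM and 0.60 and -1.46 at 10 µM. With romidepsin at 2 nM they gave -0.26 and -0.18. Of all genes 0.0709% were called at 10 nM without the block, and 0% to 1% at the other 5 doses (0.0101% to 17.6% with it). Without the block limma called none of the 6 differences, none at an unadjusted p under 0.05, and with the block 1. The control levels were 6.34 in CD8 cells and 6.27 in CD4 cells, a difference of 0.08 (interval -1.43 to 1.58). Its batches went opposite ways, by -0.90 and 1.05. Of all genes 6.22% were called in this comparison, and 37.5% with the block.

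H1f4 (chr13:23621777-23622558), also called H1e or H1.4, is another replication-dependent variant of most cells, and its probe set lay close to the detection level. It was over that level in 9 of 28 arrays, and its values ran from 2.83 over a median of 3.98 to 5.22. In CD4 cells 10 nM romidepsin gave 3.03 and 4.0 and 30 nM gave 2.83 and 4.28, against 3.03 and 3.85 in the control. In CD8 cells 10 nM romidepsin gave 4.53 and 4.42 and 0.5 µM vorinostat 5.22 and 4.39, against 3.93 and 4.0 in the control. Batch 1 stood at 3.03 in 6 of the 7 CD4 groups. The CD8 groups with romidepsin at 10 nM and vorinostat at 0.5 and 2 µM did not overlap their control, and the other 9 drug groups overlapped it. Of all genes 24.8%, 15.6% and 32.9% did not overlap in those comparisons, so the lack of overlap is not read as a result about H1f4.

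No comparison of H1f4 passed. Limma called 0 of 31, with 0 at an unadjusted p under 0.05 and 0 with the block (lowest adjusted p 0.865 and 0.252). The mean change was 0.08 with romidepsin at 10 nM in CD4 cells (interval -1.30 to 1.45) and 0.50 in CD8 cells (-0.87 to 1.88). It was largest with vorinostat at 0.5 µM in CD8 cells, at 0.83 (-0.55 to 2.21), by 1.28 and 0.38 in the batches. At 10 µM vorinostat the CD8 batches went opposite ways, by -0.91 and 0.79. These intervals do not show that H1f4 stayed level, and its changes were not tested against those of H1f2.

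H1f10 (chr6:87980421-87981482), formerly H1fx, encodes a divergent variant, H1X, whose gene lies outside the histone cluster. It was over the detection level in 1 array and was not among the tested genes. In CD4 cells it read 3.11 and 3.35 at 10 nM romidepsin, 3.77 and 5.13 at 30 nM and 3.40 and 3.60 at 10 µM vorinostat, against 2.55 and 2.70 in the control. In CD8 cells it read 2.66 and 3.09 at 30 nM romidepsin and 3.30 and 3.28 at 10 µM vorinostat, against 2.55 and 2.75 in the control. Every array of these groups was above the control of its batch, and at the remaining doses the values were within 0.05 of it in both batches. The batch 2 array with 30 nM romidepsin in CD4 cells was the one over the detection level. Since both controls were under it, no difference is given, and a call made without the filter on low values is not read as a change.

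**Figure D3:**
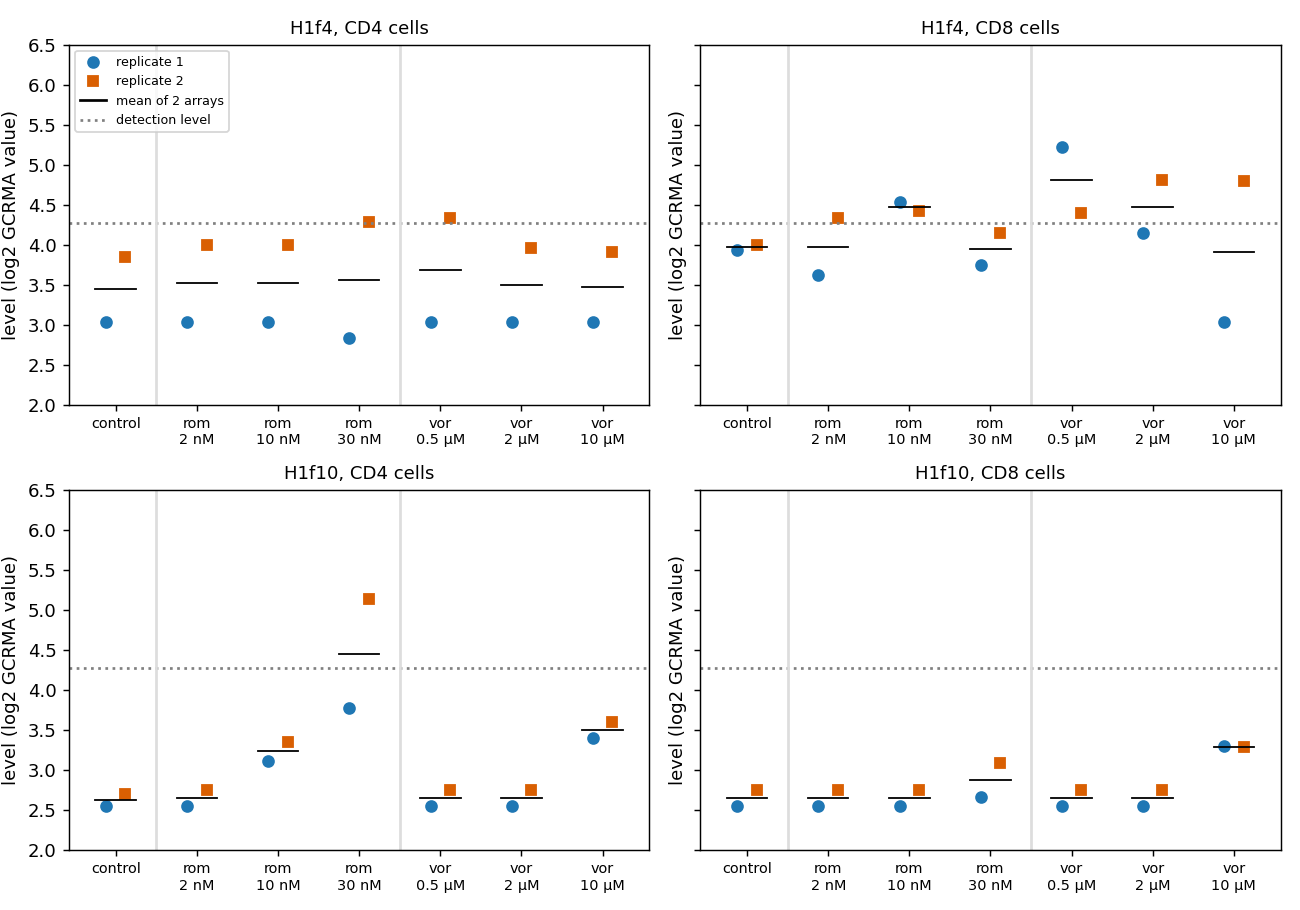
Level (log2 GCRMA value) of H1f4 (top) and H1f10 (bottom) on each array, in CD4 cells (left) and CD8 cells (right). Circles are replicate 1, squares replicate 2, bars the mean of 2 arrays and the dotted line the detection level of 4.27. H1f4 lies near that line with no step by dose, and H1f10 lies under it except for 1 array at 5.13 with romidepsin at 30 nM in CD4 cells.

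Linker histone genes of germ cells were at the floor of the arrays. The testis genes H1f6, H1f7 and Hils1 and the oocyte gene H1f8 were under the detection level in all 28 arrays, with highest values of 2.80, 2.46, 2.40 and 2.27. H1f5, a replication-dependent variant of the histone cluster, had no probe set in the annotation and was not analysed here.

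Other histone genes did not pass without the block. Replacement histones are made outside S phase. None of 8 tested was called by limma in any of the 12 drug comparisons, with 8 results at an unadjusted p under 0.05 and 16 rises and 18 falls with the block. Over the same 12 comparisons 4.61% of all results were called higher and 2.49% lower without the block, and 16% and 15.1% with it, which is the background for this and the following lists. H3f3b, which encodes the replacement histone H3.3, had the largest difference of the 8 with romidepsin at 10 nM in CD4 cells, at 2.07 ± 1.06 (adjusted p = 0.304; 1.26e-05 with the block), and was named after its values were seen. Of the core histone cluster genes 7 of 58 had a probe set of their own and 4 were tested. None was called in the 12 comparisons (3 at an unadjusted p under 0.05, 5 rises and 1 fall with the block), and their median change ran from -0.27 to 0.73, against -0.05 to 0.07 for all genes.

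For 15 genes of histone mRNA processing limma made 4 calls up and 8 down over the 12 comparisons, and 16 up and 39 down with the block. Casp8ap2 was the only one called with romidepsin at 10 nM in CD4 cells, where 3 rose and 5 fell with the block, beside 26.2% and 22% of all genes. Casp8ap2 encodes FLASH, which takes part in cutting the 3' end of histone mRNA. It rose by 0.81 ± 0.24 (adjusted p = 0.0421), 1.23 at 30 nM and 1.13 with vorinostat at 10 µM (adjusted p = 0.00136 and 0.00309). In CD8 cells it rose with vorinostat at 10 µM (1.01, adjusted p = 0.00587), and at 10 nM romidepsin the difference was 0.16 (adjusted p = 1). The list's median was -0.27 in CD4 cells and -0.22 in CD8 cells at 10 nM romidepsin, against 0.02 and -0.02 for all genes. The 8 falls were 5 of Cstf2, a subunit of the cleavage stimulation factor (-0.72 to -0.58), and 3 of Srrt, also called Ars2, which acts with the cap-binding complex (-1.30 to -1.14). Slbp, whose protein binds the histone stem-loop, had -0.53 in CD4 cells and -0.48 in CD8 cells at 10 nM romidepsin and did not pass (adjusted p = 0.00384 and 0.0225 with the block). Cstf2, Srrt and Slbp were named after their values were seen.

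Of 8 tested proteins that share linker DNA with H1, Hmgn3 rose in both cell types. Over the 12 comparisons limma made 8 calls up, 7 of them Hmgn3, and 1 down, and 21 up and 14 down with the block. Hmgn3 encodes a nucleosome-binding protein of the HMGN family, which competes with H1. It stood at 10.14 with romidepsin at 10 nM in CD4 cells, against 8.47 in the control, a rise of 1.67 ± 0.28 (adjusted p = 0.00123). In CD8 cells it stood at 10.07, against 8.28, a rise of 1.79 ± 0.28 (adjusted p = 0.00319). At 30 nM the rises were 1.44 and 2.17, and with vorinostat at 10 µM they were 1.10 and 1.67, all with adjusted p of at most 0.0112. Named after their values were seen, the other calls were a rise of Hmgn1, of the same family, with romidepsin at 30 nM in CD4 cells (0.57, adjusted p = 0.0405) and a fall of the HMG-box gene Hmgb2 with vorinostat at 10 µM in CD8 cells (-1.64, adjusted p = 0.0245). The list's median was 0.21 in CD4 cells and 0.13 in CD8 cells at 10 nM romidepsin.

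Histone chaperones and importins, which carry histones to chromatin, gave no limma call at 10 nM romidepsin among 11 tested genes (2 in CD4 cells and 0 in CD8 cells at an unadjusted p under 0.05). Over all 12 comparisons limma made 2 calls up and 3 down, with 13 results at an unadjusted p under 0.05, and 20 up and 29 down with the block. Named after their values were seen, the rises were both of Hat1, a histone acetyltransferase that acts on newly made histones (0.89 and 0.99), and the falls were 2 of Set (-0.95 and -0.83) and 1 of the H1 and H3-H4 chaperone Nasp (-1.23). The list's median was 0.21 in CD4 cells and -0.17 in CD8 cells at 10 nM.

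DNA replication genes, whose activity marks S phase, gave 13 calls without the block over the 12 comparisons, all of them falls, and 103 falls and 7 rises with the block. Of 23 tested, Rrm2, a subunit of ribonucleotide reductase, was the only one called with romidepsin at 10 nM in CD4 cells, where 2.32% of all genes were called lower. With the block 13 fell and 1 rose, beside 22% and 26.2% of all genes. Rrm2 stood at 11.04, against 12.47 in the control (-1.42 ± 0.41, adjusted p = 0.0406). In CD8 cells at 10 nM limma called none of the 23 without the block, with 2 at an unadjusted p under 0.05, and 9 falls with it, beside 8.14% of all genes. With vorinostat at 10 µM in CD8 cells 6 of the 23 fell, beside 8.5% of all genes, at a list median of -0.78, against a median of 0 for all genes. The list medians lay below that of all genes in all 12 comparisons, from -0.78 to -0.10. Their part in the H1f2 result was not tested.

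**Figure D4:**
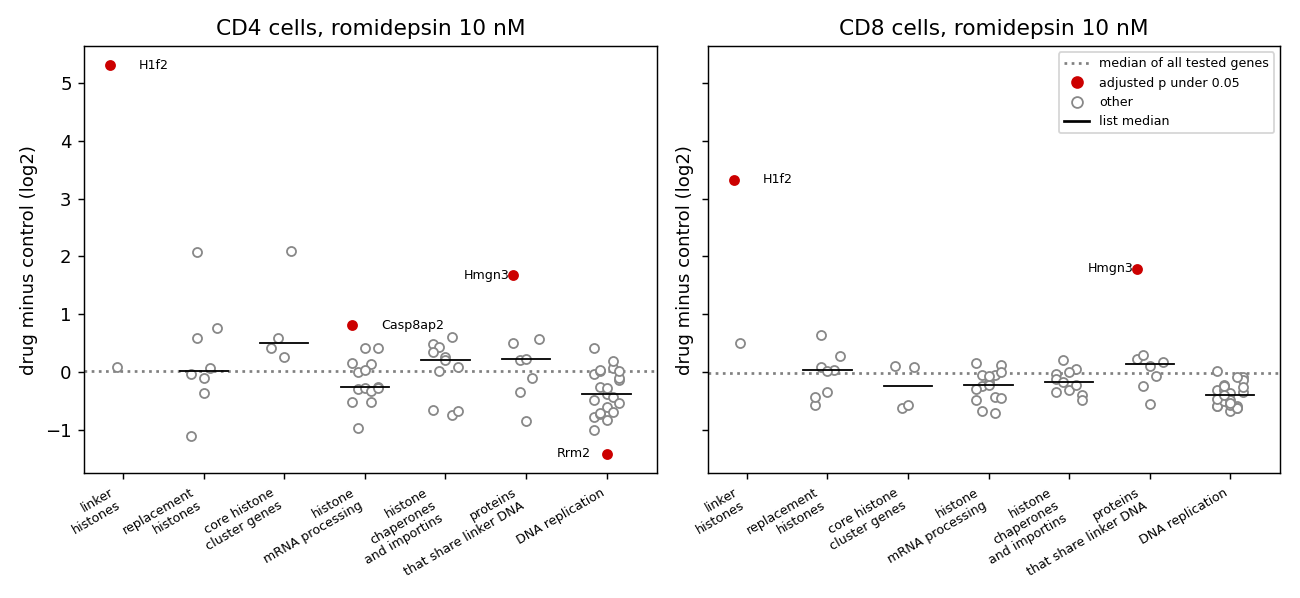
Change (log2, romidepsin at 10 nM minus control) of every tested gene of the linker histones and 6 related gene lists in CD4 cells (left) and CD8 cells (right). Filled red points have a limma adjusted p under 0.05, bars are list medians and the dotted line is the median of all tested genes. H1f2 stands at 5.31 in CD4 cells and 3.33 in CD8 cells, and Hmgn3 at 1.67 and 1.79.

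The genes whose pattern was most like that of H1f2 were Plekha1, Spire1, Evi5, Lpin2 and Manba. Pearson's r with H1f2 over the 14 group means was 0.985, 0.974, 0.968, 0.966 and 0.962 in that order, and within either batch it was at least 0.896. Plekha1 encodes a phosphoinositide-binding adaptor, Spire1 an actin nucleator, Lpin2 a phosphatidate phosphatase and Manba a lysosomal mannosidase. For H1f4 the closest were Eldr, Dennd4a, Ehd1, Notch4 and Degs1, with r from 0.923 to 0.938, but in batch 2 alone it was 0.398 to 0.604. The group means share controls and arrays, so these values describe likeness and carry no p.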

How the data were processed

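The table deposited by the authors holds 45101 probe sets of the Mouse430_2 array on 28 arrays as GCRMA values, per the submitters' processing notes, whose version and settings are not given in the sources used here. The authors' notes name no base, and the deposited values were taken to be on GCRMA's usual log2 scale. Of the probe sets 34958 name 1 gene. A gene counted as detected above 4.27, which is 2 units over the most frequent value (2.27).

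With limma 3.58.1 in R 4.3.3 (lmFit, eBayes), 14 group means were estimated from the 28 arrays together, and 31 contrasts were tested. P-values were adjusted over the 9870 tested genes by the Benjamini-Hochberg method at 0.05, and ± is the standard error unless marked SD. With equal replicate numbers, deviations from the group means correlated at 0.762 or more in all 42 pairs of groups within a cell type, and the sexes differed, so the numbers pair the arrays. The alternative with replicate number within cell type as a block is quoted where it changes a call. P-values measure the spread between these arrays only.

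Named genes were the members, the called genes of each list by size at romidepsin 10 nM (at most 4), and the 5 genes closest to each tested member. The members and lists were chosen with earlier results of these data known. Alternatives were the block, the actin covariate, quantile and median scaling, no filter or a stricter one, the second probe set, each cell type alone and leaving out arrays. The fit was tested on simulated data with independent noise for each array. Those data held no replicate effect, so the test does not cover arrays paired as these are.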

Additional observations from a re-analysis of the deposited data

How the results depend on the processing

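Among the drug comparisons limma called a linker histone in 6, and in 9 with the replicate block, 9 with the block and the beta-actin 3' minus 5' difference as covariate, 5 after quantile normalization, 5 with the second probe set, 7 with each cell type fitted alone and 5 to 6 leaving out each array in turn. Over the drug comparisons 4.61% of all results were called higher without the block and 16% with it. No such total is given for the other settings, so a shift in count is not read as a result about H1f2. Without the filter the 6 calls comprised 5 of H1f2 and 1 of H1f10, with romidepsin at 30 nM in CD4 cells. Both H1f10 control arrays there were under the detection level and only 1 drug array was over it. That call is therefore not read as a change. Leaving out the 3 CD4 arrays with Cd4 under the detection level, chosen after seeing the data, gave 4 calls in the 11 remaining comparisons, and romidepsin at 10 nM in CD8 cells missed the threshold at the same size (3.33, adjusted p = 0.0615). That comparison also missed it after quantile normalization (3.37, adjusted p = 0.0815), without the filter (3.33, 0.0647), with the second probe set (3.55, 0.312) and whenever 1 of its arrays was left out (adjusted p 0.15 to 0.245).

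For the dose steps the count of 1 became 5 with the replicate block, 7 with the block and the actin covariate, 0 with the second probe set and 0 to 1 leaving out each array. With each cell type alone it stayed 1, but the step was another, vorinostat to 10 µM in CD8 cells (2.00, adjusted p = 0.0218). For the CD8 minus CD4 responses the count of 0 became 1 with the block and 1 with the covariate as well, and stayed 0 leaving out each array. For vorinostat minus romidepsin 0 became 1 with the block, 1 with the covariate as well, and 0 to 1 leaving out each array, the 1 being without batch 2 of romidepsin at 10 nM in CD4 cells. The control comparison stayed at 0 throughout these settings, leave-one-out range 0 to 0. Shares of all genes called without and with the block are given above for these comparisons. None is given for the other settings. The cause of these shifts in count was not tested.

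No H1f2 change that passed with or without the block turned its sign in any of these settings. H1f4 and H1f10 lay near or under the detection level, which limits what their values show.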

Other observations

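The 2 responsive probe sets of H1f2 placed the batches in opposite order in every CD4 group, but not in every CD8 group. With the brightest probe set batch 1 was higher than batch 2 in 7 of 7 CD4 groups, by 0.24 to 2.00 log2 units, and in 4 of 7 CD8 groups (-0.20 to 0.52). With the second probe set batch 1 was lower in all 7 CD4 groups (-1.87 to -0.52) and all 7 CD8 groups (-2.71 to -1.38). The drug changes also differed between the probe sets. In CD4 cells the second minus the brightest was 0.49 to 0.95 in batch 1 and -1.05 to -0.36 in batch 2 over the 6 drug groups, and in CD8 cells it was -0.13 to 0.45 and -0.36 to 0.22. The batch 1 controls of the second probe set, at 4.14 in CD4 cells and 3.76 in CD8 cells, were under the detection level, so the batch 1 values rest on a level not above background. Probe sequences were not used here.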
